A study of Mus musculus with 29 samples.

Results

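Complex I of the respiratory chain was followed through 44 genes in the hippocampus of ageing mice. The genes were chosen by name alone, as the protein-coding genes whose symbol begins with Nduf followed by a, b, c, s or v and a number, or with mt-Nd, and they are 44 of the 31002 genes in the expression table. Of them, 37 lie in the nuclear genome and 7 in mitochondrial DNA. All 44 passed the filter on low values, a level of at least 1 TPM (a measure of transcript abundance scaled for gene length and library size) in no fewer than 2 mice, and so were among the 15554 genes tested.

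Complex I takes electrons from NADH, passes them to ubiquinone and uses the energy to pump protons out of the mitochondrial matrix. It is built from core subunits that carry out catalysis and from accessory subunits that surround them, and its parts are encoded in 2 genomes. The mitochondrial mt-Nd genes supply the core of the proton-pumping membrane arm, and the nuclear genes supply the core of the matrix arm and every accessory subunit. Mitochondrial genes are transcribed as long precursors that are cut into single messages, whereas each nuclear gene has its own promoter. Neurons draw most of their ATP from the respiratory chain.

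The study asked how humanizing the amyloid beta sequence affects the brain with age. RNA was sequenced from the hippocampus of 29 mice, 1 library per mouse, in 4 groups of both sexes. The WT2mon group held 7 wildtype mice aged 2 months (4 males and 3 females), and the WT22mon group 8 wildtype mice aged 22 months (6 males and 2 females), both labelled strain C57BL/6N. The hAbKI2mon group held 8 mice aged 2 months (5 males and 3 females), and the hAbKI22mon group 6 mice aged 22 months (3 males and 3 females), both labelled strain C57BL/6NJ. The hAbKI mice were homozygous for a knock-in that changes 3 amino acids of the amyloid beta stretch in the endogenous App gene. Their modified App exon is flanked by loxP sites and was not deleted in these groups, and no familial disease mutation was introduced. Per the study's methods the line carried wildtype Nnt, a nuclear gene for a mitochondrial protein, which is defective in C57BL/6J. None of the groups was treated. The label strain differs with genotype, so the substrain and the knock-in cannot be told apart in a comparison of genotypes.

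TPM are scaled for gene length, but levels of different genes can be compared only roughly, because some genes share stretches with others. The table sums to between 717535 and 816940 TPM per mouse and lists 13528 to 14189 genes at 1 TPM or more in a mouse. Read depth per gene is unknown from TPM. The markers of neurons were high in every group, with a summed level of 3815 to 4541 TPM over 8 genes across all mice. Markers of choroid plexus, a tissue next to the hippocampus, ranged from 37.5 to 18005 TPM over 6 genes. Within each group the lowest mouse lay between 37.5 and 80.7 TPM and the highest between 11479 and 18005 TPM, so this varied inside every group. As these are bulk samples, fewer cells of a type and less RNA per cell cannot be told apart.

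The 44 genes differ in where they lie and in how far their RNA can be told from that of other genes. The 37 nuclear genes are spread over 15 chromosomes, with 2 (Ndufa1 and Ndufb11) on chromosome X, by the GENCODE annotation of the mouse genome GRCm38. In mitochondrial DNA, 6 mt-Nd genes are read from one strand and mt-Nd6 alone from the other. The stretch of mt-Nd6 (M, 13552 to 14070) overlaps the end of mt-Nd5 (M, 11742 to 13565) by 14 bases on the opposite strand. The end of mt-Nd4l (M, 9877 to 10173) overlaps the start of mt-Nd4 (M, 10167 to 11544) by 7 bases on the same strand. The exons of 14 nuclear genes also lie under a gene of the opposite strand. The libraries did not keep strand, so reads from the 2 strands of such a stretch, the whole of mt-Nd6 included, cannot be told apart. The ends of the mitochondrial genes are shown because their reads can be shared. Each is written 5′ to 3′ on the strand of its own gene, with the overlap in capitals.
mt-Nd5 (last 60 bases, plus strand, chrM:13506-13565): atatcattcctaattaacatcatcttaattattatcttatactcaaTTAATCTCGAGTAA
mt-Nd6 (last 60 bases, minus strand, chrM:13552-13611): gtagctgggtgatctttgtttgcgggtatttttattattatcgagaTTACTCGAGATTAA
mt-Nd4l (last 60 bases, plus strand, chrM:10114-10173): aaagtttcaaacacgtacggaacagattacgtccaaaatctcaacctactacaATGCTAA
mt-Nd4 (first 60 bases, plus strand, chrM:10167-10226): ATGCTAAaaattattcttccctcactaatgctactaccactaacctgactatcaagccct

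Beyond these overlaps, stretches of 43 bases, the length of 1 read, were looked up in the annotated transcripts of all other genes on both strands. mt-Nd1 and mt-Nd6 shared none. By contrast, 98.8% of the stretches of mt-Nd4l also occur in the unprocessed pseudogene Gm10222, 98.0% of those of mt-Nd3 in Gm28438 and 62.4% of those of mt-Nd4 in Gm28439. These are copies of mitochondrial DNA outside the mitochondrial genome, their levels were not analysed here, and the values of mt-Nd4l, mt-Nd3 and mt-Nd4 are uncertain to that extent. Among nuclear genes, 13 of 37 shared no stretch and 9 shared at least 10%. The highest shares were 32.6% for Ndufb6, all of it with Smim27 on the opposite strand, and 30.1% for Ndufa13, mostly with Tssk6 on the opposite strand, which was listed at 0.53 to 1.80 TPM. Ndufa10 and Ndufv2 shared none and Ndufb8 shared 3.02%.

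RefSeq promoters (GRCm38.p6), windows of 300 bases from 250 bases before to 50 bases after a transcription start, were found for 32 of the 37 nuclear genes, with 34 windows in all. Ndufa2, Ndufa4l2, Ndufb9 and Ndufs1 were among those without a window. The windows were searched on both strands for the cores of 4 factors that are known to act at genes of the respiratory chain. The NRF1 core GCGCANGCG was in 9 of 34 windows (26.5%), against 6.25% of all 32851 promoters. The YY1 core AAGATGG was in 7 of 34 (20.6%), against 6.34% of all. The SP1 core GGGCGG was in 15 of 34 (44.1%), against 35.7% of all, and the ETS core CCGGAAG of GABP in 4 of 34 (11.8%), against 8.86% of all. In 9 windows none of the 4 was found. The windows of members had a median GC content of 59.0%, against 52.7% over all promoters. A match describes the letters only and is not a binding site. The promoters below belong to the nuclear genes that the comparisons turn on, written 5′ to 3′ on the strand of the gene with the matched cores in capitals.
Ndufa10 (minus strand, chr1:92473709-92474008): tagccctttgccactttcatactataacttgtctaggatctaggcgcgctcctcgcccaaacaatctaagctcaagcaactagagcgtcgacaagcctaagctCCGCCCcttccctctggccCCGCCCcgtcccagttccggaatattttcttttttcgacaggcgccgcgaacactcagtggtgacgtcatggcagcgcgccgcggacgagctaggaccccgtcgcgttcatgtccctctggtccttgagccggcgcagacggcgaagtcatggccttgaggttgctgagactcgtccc
Ndufb8 (minus strand, chr19:44555393-44555692): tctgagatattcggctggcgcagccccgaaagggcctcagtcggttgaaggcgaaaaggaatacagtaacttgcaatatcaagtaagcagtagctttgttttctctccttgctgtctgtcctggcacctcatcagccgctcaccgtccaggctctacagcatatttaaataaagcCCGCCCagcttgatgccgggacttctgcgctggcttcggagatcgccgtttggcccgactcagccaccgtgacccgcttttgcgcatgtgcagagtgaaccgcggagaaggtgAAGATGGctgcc
Ndufs6 (minus strand, chr13:73328433-73328732): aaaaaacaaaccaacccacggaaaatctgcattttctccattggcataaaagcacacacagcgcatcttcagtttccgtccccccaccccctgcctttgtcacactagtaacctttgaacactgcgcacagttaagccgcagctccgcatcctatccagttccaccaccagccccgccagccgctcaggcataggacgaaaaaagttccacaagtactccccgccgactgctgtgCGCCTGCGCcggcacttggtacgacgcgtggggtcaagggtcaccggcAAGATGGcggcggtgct
Ndufv2 (minus strand, chr17:66101510-66101809): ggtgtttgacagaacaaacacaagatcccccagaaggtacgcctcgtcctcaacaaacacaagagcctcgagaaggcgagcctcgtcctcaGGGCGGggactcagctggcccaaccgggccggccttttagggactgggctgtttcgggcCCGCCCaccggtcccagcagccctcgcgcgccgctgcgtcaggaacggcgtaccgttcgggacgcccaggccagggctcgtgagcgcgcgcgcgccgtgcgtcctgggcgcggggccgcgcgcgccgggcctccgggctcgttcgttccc
Ndufa10 holds the SP1 core 2 times, 147 and 128 bases before the start. Ndufb8 holds an SP1 core 75 bases before the start and a YY1 core that begins at base 39 after it. Ndufs6 holds an NRF1 core 15 bases before the start and a YY1 core at base 34 after it, and Ndufv2 holds 2 SP1 cores, 159 and 100 bases before it.

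The listed levels of complex I genes spanned orders of magnitude although the subunits stand in a fixed ratio in the complex. How far shared reads enter these levels was not tested. Over the 29 mice the 7 mt-Nd genes together took 2.89% of the table (median, range 2.58% to 3.26%), and the 37 nuclear genes 2.01% (range 1.91% to 2.13%). mt-Nd1, a core subunit at the joint of the arms, had the highest median level of 10700 TPM (range 9498 to 11955), followed by mt-Nd4, a pump subunit, at 4947 TPM (range 4500 to 5443). mt-Nd5 and mt-Nd2, the other antiporter-like pump subunits, had medians of 1939 and 1936 TPM and could not be put in an order. mt-Nd3 and mt-Nd6, small subunits of the proximal arm, followed with 1177 (range 936 to 1604) and 1025 TPM (range 725 to 1494), and their ranges overlapped. mt-Nd4l was listed at 0 in 10 of 29 mice and reached 140 TPM in another, with a median of 43.4 TPM.

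**Figure D1:**
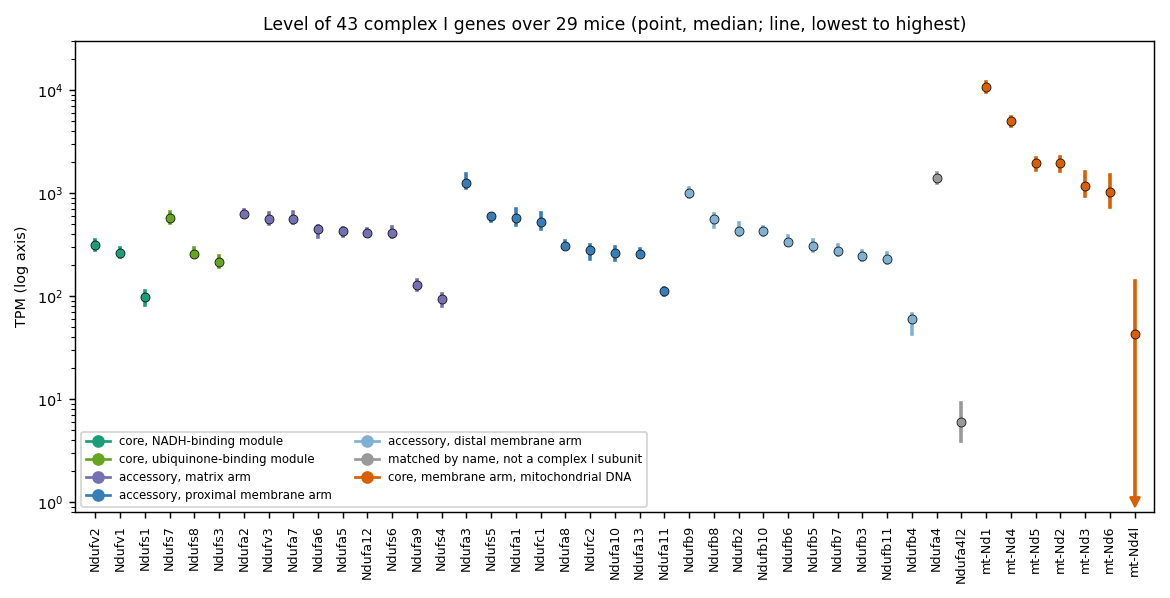
Level of 43 of the 44 genes in TPM on a log axis, by place in the complex; points are medians over 29 mice and lines run from the lowest to the highest mouse, and the arrow marks mt-Nd4l, which was listed at 0 in 10 mice. The mt-Nd genes other than mt-Nd4l have medians from 1025 to 10700 TPM, and nuclear subunits medians from 59.5 to 1249 TPM.

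Among the nuclear genes the median level was 316 TPM. The 3 core subunits of the NADH-binding module, which hold the flavin and the first iron-sulfur clusters, had medians of 316 TPM (Ndufv2), 260 TPM (Ndufv1) and 98.3 TPM (Ndufs1). Of the core subunits of the ubiquinone-binding module, Ndufs7 had a median of 571 TPM, Ndufs8 of 256 TPM and Ndufs3 of 214 TPM. Accessory subunits ranged from Ndufb4 at 59.5 TPM to Ndufa3 at 1249 TPM. The highest nuclear level, 1388 TPM, belonged to Ndufa4, and the lowest, 6.0 TPM, to its relative Ndufa4l2. Both carry the Nduf name, but Ndufa4 is known as a subunit of cytochrome c oxidase, and neither is classed as a subunit of complex I. As the genes were chosen by name, both remain in the sums and counts of the 37 nuclear genes.

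Mice of the same group differed little in these genes. The coefficient of variation within groups was a median of 5.17% over nuclear genes, from 3.57% for Ndufa11 to 22.1% for Ndufa4l2. For the mt-Nd genes it was a median of 6.57%, from 4.62% for mt-Nd4 to 13.6% for mt-Nd6, with mt-Nd4l at 93.7%. Over all genes tested the median was 14.5%. Those include genes near the filter on low values, whereas the nuclear genes had a median level of 316 TPM. Ndufa4l2, the most variable nuclear gene, also had the lowest level, 6.0 TPM. Genes of similar level were not compared, so low variation is not shown to be particular to complex I genes.

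The nuclear genes rose and fell together from mouse to mouse, and the mitochondrial genes did so separately. After removal of group means, the Pearson correlation over the 29 mice had a median of 0.33 over the 666 pairs of nuclear genes, of which 87.5% were positive. It had a median of 0.40 over the 21 pairs of mt-Nd genes, all of them positive. Between the 259 pairs of a nuclear and a mitochondrial gene the median was 0.05, close to the 0.058 over all pairs of genes tested. The closest nuclear pair was Ndufs3 with Ndufv3 (r = 0.84), and the closest mitochondrial pairs were mt-Nd4 with mt-Nd5 and mt-Nd2 with mt-Nd4 (both r = 0.79). mt-Nd6, the gene read from the other strand, correlated with mt-Nd4 at r = 0.73 and with its neighbour mt-Nd5 at r = 0.40. Ndufb4 stood apart, with a median r of -0.16 to the other nuclear genes and the lowest value against Ndufs7 (r = -0.63). These pairs share libraries, and genes of 1 library share its scaling, so the values are a description.

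**Figure D2:**
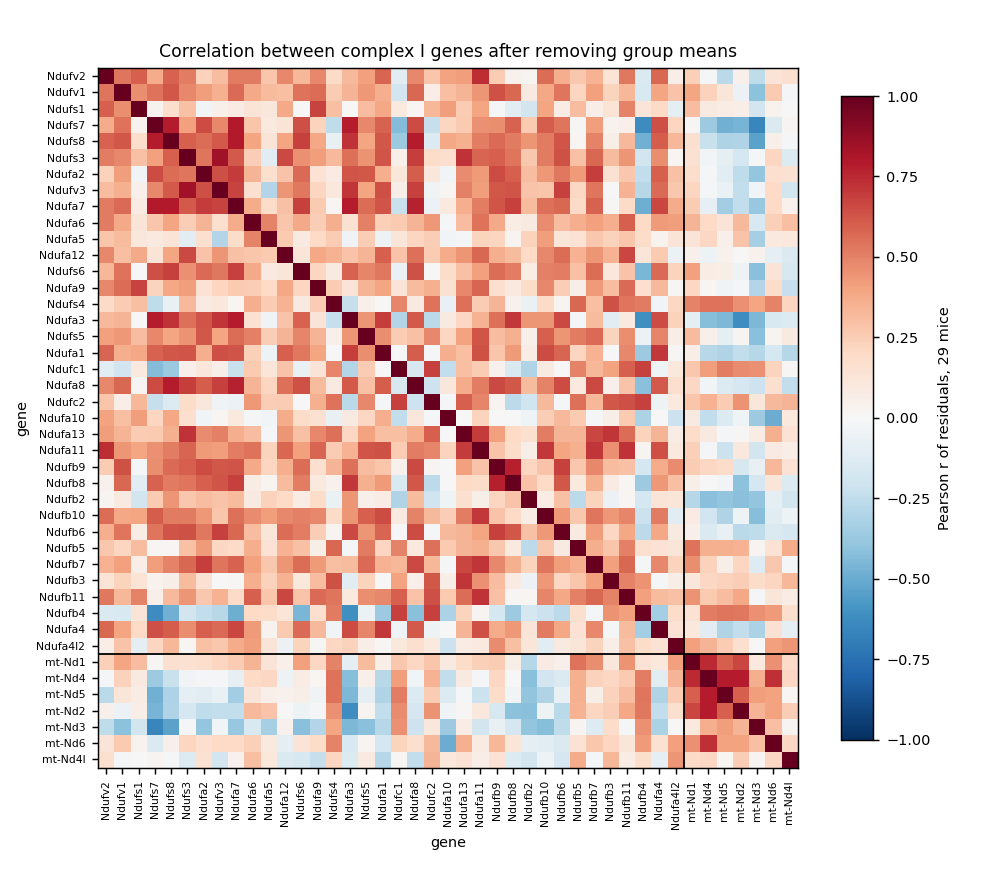
Pearson correlation of residuals from the group means on log2(TPM + 1) over 29 mice for every pair of 43 genes, red for positive and blue for negative, with black lines between nuclear and mt-Nd genes. The nuclear block and the mt-Nd block are mostly red (medians 0.33 and 0.40), and the block between them is near 0 (median 0.05).

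Summed over its genes, each genome's complex I RNA differed little between groups, while the ratio of the sums separated young from old hAbKI mice. The nuclear sum was 15406 ± 648 TPM in WT2mon (SD, n = 7), 15222 ± 465 in WT22mon (n = 8), 15196 ± 656 in hAbKI2mon (n = 8) and 14612 ± 284 in hAbKI22mon (n = 6). The mt-Nd sum was 22074 ± 1089, 21580 ± 1472, 21300 ± 756 and 22406 ± 973 TPM in the same order. The old hAbKI mice thus had the lowest mean nuclear sum and the highest mean mt-Nd sum, and the ranges of both sums overlapped between all groups. The ratio of the mt-Nd sum to the nuclear sum, which does not depend on the scaling of a library, was 1.44 ± 0.096 in WT2mon, 1.42 ± 0.12 in WT22mon, 1.40 ± 0.028 in hAbKI2mon and 1.53 ± 0.075 in hAbKI22mon. In hAbKI mice it ran from 1.36 to 1.44 at 2 months and from 1.45 to 1.62 at 22 months, so these groups did not overlap. In WT mice it ran from 1.31 to 1.54 at 2 months and from 1.24 to 1.56 at 22 months, and the first range lies within the second. No test was made of a sum over the genes. Complex I messages made up 30.2% ± 0.61 (SD, n = 29) of the RNA of the 13 protein-coding mitochondrial genes.

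**Figure D3:**
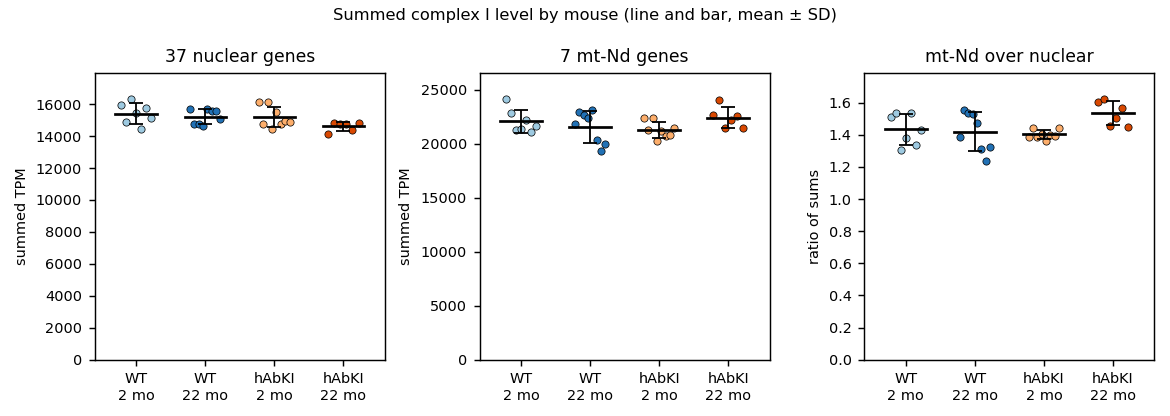
Summed TPM of the 37 nuclear genes (left) and of the 7 mt-Nd genes (middle), and their ratio (right), each point 1 mouse, with the mean and SD of each group; axes start at 0. The sums overlap between groups, and the ratio is 1.45 to 1.62 in the 6 old hAbKI mice against 1.36 to 1.44 in the 8 young ones.

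Each gene was then compared between groups by limma on log2(TPM + 1), with all 29 mice in one model, and was called at a Benjamini-Hochberg false discovery rate under 0.1 over all 15554 genes with p under 0.05. Differences are on the log2(TPM + 1) scale.

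With age, hAbKI mice had lower levels of 2 nuclear subunits and a higher level of 1 mitochondrial subunit. These 3 of 44 genes stand beside 9.18% of all genes called in this comparison, so the share called was not above the background. Ndufa10, an accessory subunit of the proximal membrane arm related to nucleoside kinases, had 261, 271 and 292 TPM (lowest, median and highest) in the 8 young hAbKI mice. In the 6 old hAbKI mice it had 222, 232 and 258 TPM, so every old mouse lay below every young one. It fell by 0.21 on the log2 scale (SE 0.041, a fall of 13.3%, adjusted p = 0.0031, limma). Ndufv2, an iron-sulfur core subunit of the NADH-binding module, had 290, 331 and 348 TPM in the young and 278, 306 and 317 TPM in the old hAbKI mice. The groups overlapped, and it fell by 0.12 (SE 0.043, adjusted p = 0.099, limma), just within the threshold. That call was lost in 5 of 10 alternative fits and in 9 of 14 fits without 1 mouse, with adjusted p of up to 0.30. mt-Nd6 had 728, 985 and 1101 TPM in the young and 1025, 1178 and 1494 TPM in the old hAbKI mice. It rose by 0.36 (SE 0.11, a rise of 28.2%, adjusted p = 0.048, limma), and all old mice but 1 lay above every young mouse. As a share of the other mt-Nd genes it was 4.73% ± 0.56 (SD, n = 8) in young and 5.82% ± 0.64 (n = 6) in old hAbKI mice. The mt-Nd6 call was lost without hAbKI22mon replicate 1 (0.32, adjusted p = 0.10, limma) or replicate 2 (0.30, adjusted p = 0.11, limma). As the libraries did not keep strand, the values of mt-Nd6 may include reads from the opposite strand.

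**Figure D4:**
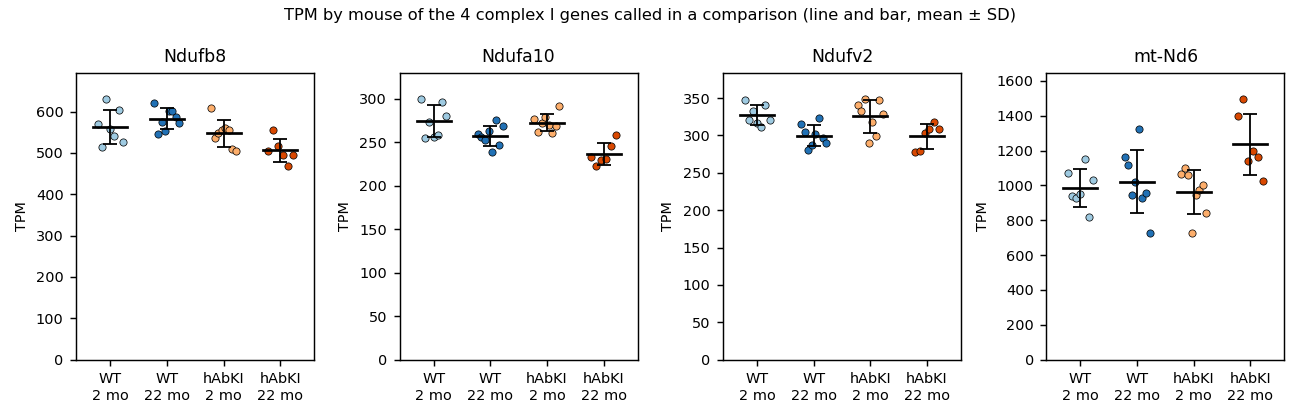
TPM of Ndufb8, Ndufa10, Ndufv2 and mt-Nd6 in each mouse, with the mean and SD of each group; axes start at 0. Ndufa10 is at 222 to 258 TPM in old and 261 to 292 TPM in young hAbKI mice, and mt-Nd6 has its highest group, 1025 to 1494 TPM, in old hAbKI mice.

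The remaining genes moved by less than the test could call, with the nuclear genes mostly below and the mitochondrial genes mostly above their level at 2 months. Of the 37 nuclear genes 31 were lower in old hAbKI mice, with a median difference of -0.06, beside a median of -0.0047 and 51.2% lower over all genes tested. After quantile normalization, rescaling to nuclear protein-coding genes and median ratio scaling, 24, 29 and 29 were lower. Of the 7 mt-Nd genes 6 were higher, with a median of 0.07. At an unadjusted p under 0.05 stood 14 of the 44 genes (31.8%), 10 nuclear genes lower, Ndufb4 higher, and mt-Nd2, mt-Nd3 and mt-Nd6 higher, beside 19.9% of all genes. The groups did not overlap for 3 of 44 genes, Ndufa10 and mt-Nd2 among them, beside 1.64% of all genes. mt-Nd2 had 1720, 1866 and 1963 TPM in young and 1964, 2002 and 2072 TPM in old hAbKI mice, a difference of 0.11 (SE 0.048, adjusted p = 0.17, limma) that was not called.

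By place in the complex, all 3 NADH-binding and all 4 ubiquinone-binding core subunits were lower in old hAbKI mice, with median differences of -0.12 and -0.08. The difference was -0.14 for Ndufs1 (adjusted p = 0.11, limma), -0.05 for Ndufv1, -0.08 for Ndufs3 and Ndufs7, and -0.07 for Ndufs8. Of the accessory subunits, 6 of 9 of the matrix arm, 8 of 9 of the proximal and 8 of 10 of the distal membrane arm were lower, with medians of -0.06, -0.05 and -0.02. The largest difference the other way among nuclear genes was 0.20 for Ndufb4 (SE 0.086, adjusted p = 0.18, limma), whose stretches are to 18.6% shared with the processed pseudogene Ndufb4c. Ndufa4 differed by -0.09 and Ndufa4l2 by -0.12, and neither was called.

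In WT mice 1 of the 44 genes was called between the same ages, a share not above the 5.0% of all genes called. Ndufv2 had 312, 321 and 348 TPM in the 7 young and 280, 299 and 323 TPM in the 8 old WT mice. It fell by 0.13 (SE 0.042, a fall of 8.39%, adjusted p = 0.0997, limma), and the groups overlapped. This call lay at the edge of the threshold, and it was lost in 7 of 10 alternative fits and in 12 of 15 fits without 1 mouse. At an unadjusted p under 0.05 stood 7 of 44 genes (15.9%), all lower, beside 16.2% of all genes, a share near the background. No complex I gene had groups without overlap, beside 0.887% of all genes. Of the nuclear genes 27 of 37 were lower, with a median of -0.03 beside -0.03 and 59.2% lower over all genes. Under the 3 scalings above, 16, 19 and 18 of 37 were lower, so no direction held for the nuclear genes in WT mice. Of the mt-Nd genes 4 of 7 were lower, with a median of -0.02. As in hAbKI mice, all 3 NADH-binding and all 4 ubiquinone-binding core subunits were lower with age in WT mice. Their median differences were -0.13 and -0.04 before the other scalings. Ndufs1 differed by -0.13 (adjusted p = 0.19, limma), close to Ndufv2 of the same module, while Ndufa10 differed by -0.09 and mt-Nd6 by 0.04.

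Against WT mice of the same age, hAbKI mice at 22 months had 1 complex I gene at a lower level. Ndufb8, an accessory subunit at the end of the membrane arm whose protein level is widely used as a marker of complex I assembly, had 546, 582 and 621 TPM in the 8 old WT mice. In the 6 old hAbKI mice it had 469, 500 and 555 TPM, and 1 of them lay within the range of WT mice. It was lower by 13.2%, a log2 difference of -0.20 (SE 0.045, adjusted p = 0.044, limma). This 1 of 44 genes stands beside 0.495% of all genes called. The call was lost with median ratio scaling or eBayes without trend (adjusted p = 0.11 in both, limma) and in 3 of 14 fits without 1 mouse, namely WT22mon replicate 1 and hAbKI22mon replicates 4 and 5, over which the adjusted p reached 0.18. Of the other subunits of the distal membrane arm, Ndufb2, Ndufb5, Ndufb6 and Ndufb9 were lower and the rest higher, from -0.09 for Ndufb9 to 0.22 for Ndufb4, and none was called.

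At 22 months the medians of the 2 genomes lay on opposite sides of 0. Of the nuclear genes 28 of 37 were lower in hAbKI mice, with a median of -0.05, and of the mt-Nd genes 5 of 7 were higher, with a median of 0.06, beside a median of -0.01 and 54.2% lower over all genes tested. Under the same 3 scalings, 24, 23 and 22 nuclear genes were lower. This comparison and that of age in hAbKI mice share the 6 old hAbKI mice. At an unadjusted p under 0.05 stood 11 of the 44 genes (25%), beside 10.2% of all genes. They were Ndufb8, Ndufa10, Ndufa4, Ndufa3, Ndufb9, Ndufs6 and Ndufa2, which were lower, and Ndufb4, Ndufc2, mt-Nd2 and mt-Nd6, which were higher. Only Ndufb8 was past the adjusted threshold. Ndufs6, a zinc-binding accessory subunit of the matrix arm, was the 1 gene whose groups did not overlap, beside 0.328% of all genes. It had 402, 411 and 445 TPM in old WT and 373, 393 and 399 TPM in old hAbKI mice, a difference of -0.09 (SE 0.043, adjusted p = 0.45, limma). Ndufa10 differed by -0.12 (adjusted p = 0.24, limma), mt-Nd6 by 0.28 (SE 0.11, adjusted p = 0.32, limma) and mt-Nd2 by 0.13 (adjusted p = 0.31, limma).

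The 7 nuclear core subunits were each lower in old hAbKI than in old WT mice, but by little. The differences ran from -0.0035 for Ndufv2 through -0.0135 for Ndufs1, -0.03 for Ndufv1 and Ndufs3 and -0.06 for Ndufs8 to -0.07 for Ndufs7, and none was called. The 95% interval for Ndufv2 ran from -0.09 to 0.09.

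At 2 months no complex I gene was called between genotypes, beside 0.0386% of all genes, which is 6 genes. At an unadjusted p under 0.05 stood mt-Nd5 alone, 1 of 44 genes (2.27%) beside 6.69% of all genes, and no gene had groups without overlap, beside 0.0707% of all. mt-Nd5 had 1881, 1983 and 2162 TPM in young WT and 1687, 1865 and 1979 TPM in young hAbKI mice, a difference of -0.14 (SE 0.050, adjusted p = 0.63, limma). Of the nuclear genes 27 of 37 were lower in hAbKI mice, with a median of -0.01, beside a median of -0.03 and 64.6% lower over all genes. Of the mt-Nd genes 6 of 7 were lower, with a median of -0.06. The nuclear direction turned with the scaling of the libraries, as 15, 13 and 9 of 37 genes were lower under those scalings in the same order. The differences of the nuclear core subunits at this age ran from -0.04 for Ndufs3 to 0.0066 for Ndufs8.

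**Figure D5:**
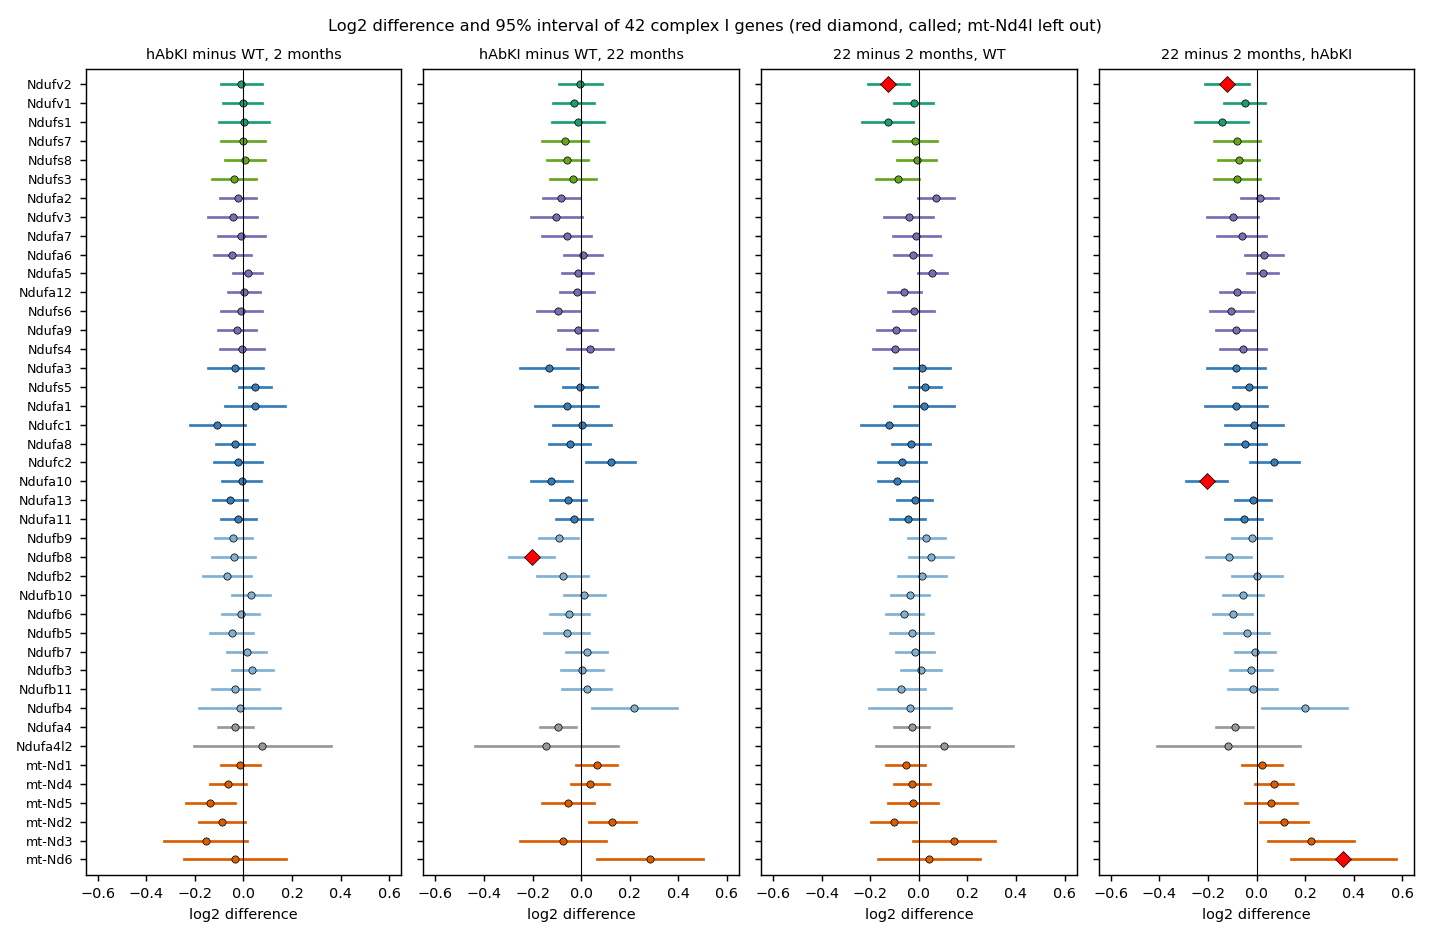
Log2 difference with its 95% interval for 42 genes in 4 comparisons, coloured by place in the complex as in the plot of levels; red diamonds are called genes, and mt-Nd4l is left out because its intervals exceed the axis. Calls are Ndufb8 between genotypes at 22 months, Ndufv2 with age in WT, and Ndufa10, Ndufv2 and mt-Nd6 with age in hAbKI mice.

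The difference between the genotypes in the effect of age was tested as an interaction, and no complex I gene was called, beside 0.00643% of all genes, which is 1 gene. At an unadjusted p under 0.05 stood 5 of 44 genes (11.4%), beside 6.86% of all genes. They were mt-Nd2 (0.22, SE 0.066, adjusted p = 0.62, limma), mt-Nd6 (0.32, SE 0.15, adjusted p = 0.71, limma), Ndufc2 (0.14), Ndufb8 (-0.16) and Ndufa10 (-0.12). So the calls of Ndufa10 and mt-Nd6 in hAbKI and not in WT mice are not shown to be a difference between the genotypes. For Ndufv2 the interaction was 0.0048 with a 95% interval of -0.12 to 0.13. Of the mt-Nd genes 6 of 7 had a positive interaction, with a median of 0.08, and of the nuclear genes 26 of 37 a negative one, with a median of -0.03, beside a median of 0.02 and 45.1% negative over all genes.

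Set side by side, ageing in the 2 genotypes shared no mice, and 24 of 37 nuclear genes (64.9%) were lower with age in both, beside 36.9% of all genes tested. For the mt-Nd genes none of 7 was lower in both and 2 were higher in both. The genotype comparisons at 2 and 22 months likewise shared no mice, and 21 of 37 nuclear genes (56.8%) were lower in hAbKI at both ages, beside 34.6% of all genes. Since 3 scalings turned or undid the nuclear direction at 2 months and in WT mice, these counts depend on the scaling.

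mt-Nd4l, a small membrane subunit, gave no usable comparison. Its values ran from 0 to 140 TPM in WT2mon, from 0 to 117 in WT22mon, from 0 to 84.2 in hAbKI2mon and from 0 to 102 in hAbKI22mon, so every group held mice listed at 0. Its log2 differences between groups had standard errors of 1.49 or more, and the values of its neighbour mt-Nd4, whose message it shares, stayed between 4500 and 5443 TPM.

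Ndufab1, the acyl carrier protein that is also a complex I subunit and whose symbol the name rule leaves out, had a median of 454 TPM and was called in no comparison, with its largest difference of -0.12 with age in WT mice (adjusted p = 0.16, limma). Of 18 assembly factors, 1 was called, Foxred1, which fell by 0.18 with age in hAbKI mice (SE 0.062, adjusted p = 0.087, limma), a share near the background of 9.18%. The median over assembly factors was -0.09 with age in WT, -0.05 with age in hAbKI, -0.04 between genotypes at 2 months and 0.0037 at 22 months. Of 10 nuclear regulators of respiratory genes (among them Nrf1, Gabpa, Ppargc1a, Yy1 and Sp1) none was called, and their median levels lay between 0.94 and 10.5 TPM. The largest differences among them were -0.38 for Ppargc1a between genotypes at 2 months (adjusted p = 0.62, limma) and 0.33 for Yy1 between genotypes at 22 months (adjusted p = 0.37, limma).

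Of 22 genes of mitochondrial RNA synthesis and processing, Mterf1b rose by 0.58 with age in WT mice (adjusted p = 0.067, limma). Its level was near the filter, at 0.2 to 2.39 TPM with a median of 1.24 TPM. Elac2, which cuts the ends of tRNAs out of the precursor, fell by 0.15 with age in hAbKI mice (adjusted p = 0.068, limma). Each was 1 of 22 genes called, beside 5.0% of all genes in the first comparison and 9.18% in the second. Tfam, which packages and transcribes mitochondrial DNA, differed by 0.29 between genotypes at 22 months (adjusted p = 0.35, limma). Of 6 genes of mitochondrial DNA replication none was called. Among the 6 other protein-coding mitochondrial genes only mt-Co1 was called, with a rise of 0.12 with age in WT mice (adjusted p = 0.079, limma). Called or not, 5 of these 6 were higher with age in hAbKI mice, with a median of 0.08, beside 6 of 7 mt-Nd genes and 0.07. Between genotypes at 22 months 4 of the 6 were higher in hAbKI mice, with a median of 0.04, beside 5 of 7 and 0.06. So the higher mt-Nd levels were not particular to complex I.

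The other complexes of the chain serve as a measure of size. With age in hAbKI mice, 2 of 4 nuclear genes of complex II, 4 of 9 of complex III, none of 15 of complex IV and 5 of 17 of ATP synthase were called lower, against 2 of 37 nuclear complex I genes, beside 9.18% of all genes called in either direction. Called or not, 4 of 4, 7 of 9, 7 of 15 and 15 of 17 were lower, against 31 of 37 of complex I, with medians of -0.12, -0.14, 0.02 and -0.06 against -0.06. With age in WT mice, 1 gene of complex III and 1 of ATP synthase fell, and 2 of complex IV rose. Between genotypes at 22 months, Sdhd of complex II was lower by 0.39 on the log2 scale (adjusted p = 0.0023, limma) and Cox6a1 of complex IV by 0.18 (adjusted p = 0.035, limma), in size beside the 0.20 of Ndufb8. At 2 months none was called. The 37 genes include Ndufa4 and Ndufa4l2, and no difference between complexes was tested.

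Markers of cell types moved in the same comparisons. Between genotypes at 22 months all 8 neuronal markers were lower in hAbKI mice, with a median of -0.04, and Rbfox3 was lower by 0.20 on the log2 scale (adjusted p = 0.068, limma), the size of Ndufb8. In that comparison all 5 markers of hippocampal neurons (median -0.10), 5 of 6 of astrocytes (-0.09) and all 4 of endothelium (-0.20) were lower too. Of oligodendrocytes 4 of 6 were lower (-0.01) and of microglia 3 of 6 (-0.007). Of choroid plexus 5 of 6 were higher (0.48), and of blood all 5 (0.31). With age in hAbKI mice 7 of 8 neuronal markers were lower, with Rbfox3 (-0.19) and Camk2a (-0.18) called, and the summed level ran from 3947 to 4541 TPM in young and from 3815 to 4268 TPM in old mice. The summed level in WT mice ran from 4146 to 4537 TPM at 2 months and from 3827 to 4524 TPM at 22 months. Of 6 microglial markers, 5 were called higher with age in each genotype. Of 6 astrocyte markers, 5 were higher and 1 lower with age in WT mice (median 0.11). In hAbKI mice 4 were higher and 2 lower (median 0.06). Only Gfap of astrocytes was called, with a rise of 0.62 in WT and 0.71 in hAbKI mice. Of the 5 markers of hippocampal neurons, the 6 of oligodendrocytes, the 4 of endothelium, the 6 of choroid plexus and the 5 of blood, only Mog of oligodendrocytes (-0.42) and Flt1 of endothelium (0.31) were called, both with age in WT mice. The part of these markers' cell types in the differences of complex I genes was not tested.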

How the data were processed

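Hippocampal RNA from 29 mice was sequenced, 1 library per mouse. The authors made full-length cDNA, sequenced paired reads of 43 bases, aligned them with STAR 2.5.1b and estimated TPM with RSEM 1.2.22 on mouse genome GRCm38, and the TPM were deposited as 1 table. No replicates were pooled. Libraries were not strand-specific by the protocol named, so reads of overlapping genes cannot be told apart. Groups came from the labels. Library numbers in the sample titles run in blocks that follow the groups, so processing order and group cannot be told apart.

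Genes that reached 1 TPM in 2 or more mice entered the test by limma 3.58.1 (eBayes with trend, R 4.3.3) on log2(TPM + 1), with Benjamini-Hochberg adjustment over 15554 genes. Calls needed a false discovery rate under 0.1 and p under 0.05. The fit was tested on simulated data with independent noise and shifts larger than those of the called complex I genes. Recovery of differences of their size was not tested. TPM hold no read depth, so no counting interval is given. Named were nuclear core subunits and all mt-Nd genes, members called in at least 1 of 5 comparisons, the 3 largest differences of each comparison, Ndufa4 and Ndufa4l2, and called or largest genes of the comparison lists. Ndufs6 and others named from a small count were chosen after their values were seen. The members and the gene lists were chosen with earlier results of these data known. Nothing says that mice of a group came from separate litters, so p-values measure the spread between these mice. The values of 1 member are not reported here on their own. No 2 libraries held identical values.

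Alternatives were a pseudocount of 0.1, other filters, quantile normalization, rescaling to nuclear protein-coding genes, median ratio scaling, a fit on 2 groups alone, a term for sex, eBayes without trend, a correlation between mice whose names share a number, and leaving out each mouse in turn. Positions and overlaps are from GENCODE M21, on the build of the files.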

Additional observations from a re-analysis of the deposited data

Results flagged for a closer look

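Of 184 sets of values, 43 genes and 3 summed measures in 4 groups of 6 to 8 mice, 7 had a mouse set apart from the rest of its group by more than Dixon's criterion allows, and chance alone gives about 1 in 20. In WT22mon, 1 mouse had Ndufs1 at 83.0 TPM, with the next at 91.2 and the highest at 98.3. Another mouse of WT22mon had Ndufa8 at 341 TPM, above the next at 309 TPM. In hAbKI2mon, 1 mouse had Ndufs1 at 86.0 TPM, with the next at 99.2 and the highest at 110 TPM. Another mouse of hAbKI2mon stood above its group in 3 genes, with Ndufs3 at 247 TPM and the next at 223, Ndufs4 at 105 TPM and the next at 96.4, and Ndufa13 at 279.5 TPM and the next at 261.3. In hAbKI22mon, 1 mouse had mt-Nd3 at 1000 TPM (999.71), below the next at 1211 TPM. Without that mouse the difference of mt-Nd3 with age in hAbKI mice was 0.28 (adjusted p = 0.053, limma), against 0.23 (adjusted p = 0.13) with it.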

How the results depend on the processing

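The count of nuclear genes called stayed at 0 between genotypes at 2 months and in the interaction under every alternative. Between genotypes at 22 months it was 1, and 0 with median ratio scaling or eBayes without trend, and 0 to 1 without 1 mouse. With age in WT it was 1, but 2 after quantile normalization (Ndufa2 and Ndufa5 in place of Ndufv2), 0 without the filter on low values, with a pseudocount of 0.1, median ratio scaling, a term for sex, eBayes without trend or a correlation between mice whose names share a number, and 0 to 2 without 1 mouse. With age in hAbKI it was 2, and 1 without the filter, with eBayes without trend or with that correlation, and 1 to 2 without 1 mouse. It was also 2 after quantile normalization and in a fit on 2 groups alone, but with another gene in place of Ndufv2 (Ndufb8 in the first). After rescaling to nuclear protein-coding genes or with a term for sex it was 3, with Ndufs1 added. Of the mt-Nd genes 1 was called with age in hAbKI, against 2 after quantile normalization or median ratio scaling, 3 with only the groups compared, and 0 to 2 without 1 mouse (0 without hAbKI22mon replicate 1 or 2). Ndufa10 with age in hAbKI was called in all 10 alternatives and all 14 fits without 1 mouse, and mt-Nd6 in all 10 alternatives and 12 of 14 fits.

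mt-Nd4l changed sign without single mice, running from -0.41 to 0.78 with age in WT, from -0.88 to 0.60 with age in hAbKI, from -0.0149 to 1.35 between genotypes at 22 months and from -1.06 to 0.42 in the interaction. The cause was not tested. The highest mt-Nd level in old hAbKI mice depended on the sum, in which mt-Nd1 weighs most. As a median over the 7 genes of log2(TPM + 1), it was 10.93 ± 0.097 in WT2mon (SD, n = 7), 10.84 ± 0.12 in WT22mon (n = 8), 10.80 ± 0.069 in hAbKI2mon (n = 8) and 10.88 ± 0.083 in hAbKI22mon (n = 6). Over all genes, the calls between genotypes at 22 months were 77, against 40 in a fit on 2 groups alone, 48 with eBayes without trend and 49 with the correlation between mice. Without single mice they ran from 30 (hAbKI22mon replicate 5) to 143 (hAbKI22mon replicate 2), with 42 without hAbKI22mon replicate 4 and 43, 50, 47 and 51 without WT22mon replicates 1, 2, 3 and 6. Calls with age fell from 777 to 509 in WT without WT22mon replicate 7 and from 1428 to 910 in hAbKI without hAbKI22mon replicate 4, those between genotypes at 2 months rose from 6 to 11 without hAbKI2mon replicate 4, and those of the interaction ran from 0 to 3, so the background shares of calls move with single mice. No paired analysis was possible because replicate numbers were given in accession order and do not pair mice across groups. TPM leave read depth, and so the counting error of low genes, unknown.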
